A study of Equus caballus with 2 samples.

Results

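The genes described here are 10 transcription factors that mark the position of the uterus in the body or the identity of its stromal cells, namely HOXA9, HOXA10, HOXA11, HOXD9, HOXD10, HAND2, FOXO1, NR2F2, EMX2 and GATA2. They were chosen by symbol, and all 10 were found, each in a single row, among the 21426 genes counted by single cell sequencing of equine endometrial fibroblasts. The fibroblasts (passage 3) came from the endometria of 4 mares, taken in the mid-luteal phase and healthy or with mild fibrotic alterations, and were grown on collagen-coated hydrogels. The control library came from cells without further supplementation, and the TGF-β1 library from cells that received 10 ng/ml human recombinant TGF-β1 for 24 h. In both, the medium held bovine serum albumin in place of serum during treatment, and no hormone treatment is named in the labels. Cells of the 4 mares were pooled before loading, so each group was 1 droplet library. MFGE8-treated cells were not analysed here.

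HOX genes lie in chromosomal clusters (HOXA to HOXD), and their order within a cluster follows the place along the body axis where they are active in the embryo. Genes numbered 9 to 11 pattern the Müllerian duct into oviduct and uterus, and the adult endometrial stroma keeps expressing them. HAND2, NR2F2, FOXO1 and GATA2 belong to the progesterone response of the stroma and, in species that form one, to the differentiation of the decidua, while EMX2 is needed for the reproductive tract to form. The horse forms no true decidua.

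The kept cells, 3865 control and 4513 TGF-β1 cells, had at least 20000 unique molecular identifiers (UMIs, 1 per captured transcript), at least 3500 genes and under 4% mitochondrial UMIs. They held 210497250 control and 219731144 TGF-β1 UMIs, with medians of 50313 and 43142 UMIs per cell. The libraries shared 6 cell barcodes. No doublets were removed here, since the study called them from genotypes in the reads. Levels are UMIs per 1000000 (CPM) summed over the kept cells, ratios are the log2 of the TGF-β1 level divided by the control level, with no pseudocount added, and 95% intervals (exact binomial, Clopper-Pearson) cover counting error only. With 1 library per condition there was no replicate and no test, the effect of library preparation cannot be told apart from that of TGF-β1, and "higher" and "lower" describe these 2 libraries. Counts from the 3′ end are not scaled by gene length, so levels were compared within a gene and not between genes. The label fibroblast was checked with marker genes. UMIs of VIM, COL1A1, COL1A2 and COL3A1 were found in 100% of the cells of both libraries, while EPCAM had 1 and 3 UMIs, CDH1 6 and 4, PTPRC 1 and 0, and PECAM1 9 and 8 in the control and TGF-β1 libraries. The keratin KRT8, an epithelial marker, fell outside that pattern with 114 CPM in the control and 4.48 CPM in the TGF-β1 library, and KRT7 had 19.3 and 7.04 CPM. The part of keratin-positive cells in the ratios of the 10 factors was not tested.

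All 10 transcription factors were expressed, with at least 2615 UMIs in each library and a mean of at least 12.7 CPM. After TGF-β1, 8 of the 10 had a lower level and 2 a higher level, where 48.6% of the 7658 genes that reached a mean of 10 CPM had a ratio below 0. Their median log2 ratio was −0.19, against 0.0082 for all 7658 genes. Only NR2F2 differed by more than 2-fold, and it was lower. Among all 7658 genes, 4.43% differed by more than 2-fold, 2.13% being lower and 2.3% higher. The 10 genes therefore covered a range from a 2.07-fold lower level (NR2F2) to a 1.16-fold higher level (HOXA9), and the 3 farthest from 0, NR2F2, EMX2 and HOXD9, were all lower.

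**Figure D1:**
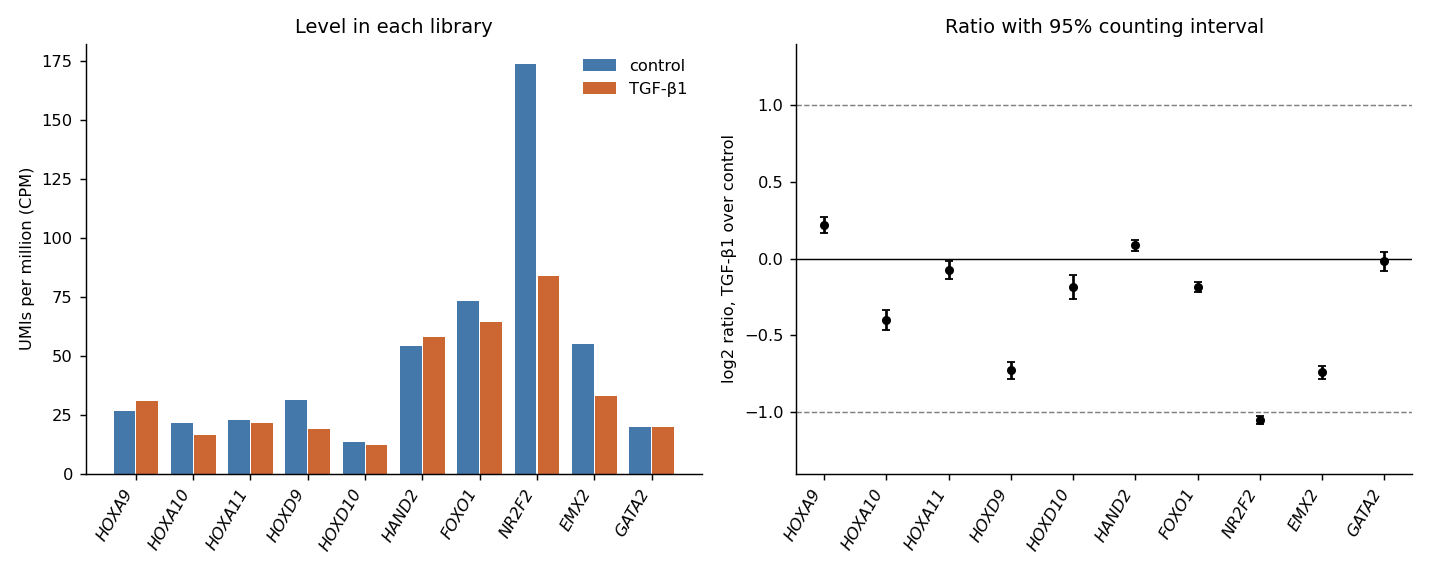
Level of each transcription factor in the control and TGF-β1 libraries (left, bars, CPM of the summed kept cells, 1 library per bar) and their log2 ratio, TGF-β1 over control (right, points with 95% counting intervals, dashed lines at 2-fold). NR2F2 lies below the lower dashed line, EMX2 and HOXD9 lie between −0.78 and −0.67 with their intervals, and the interval of GATA2 spans 0.

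Of the HOXA genes, HOXA10 is the best known regulator of uterine receptivity and HOXA11 acts beside it in stromal cells, while HOXA9 is linked to the oviduct. HOXA9 (ENSECAG00000054482) had 5553 UMIs in the control and 6743 in the TGF-β1 library, which is 26.4 and 30.7 CPM. It was the gene with the highest ratio of the 10, a log2 ratio of 0.22 (0.17 to 0.27). HOXA10 (ENSECAG00000012577) had 21.4 CPM in the control and 16.2 CPM in the TGF-β1 library, from 4508 and 3566 UMIs. Its log2 ratio was −0.40 (−0.46 to −0.34), the opposite sign to its neighbour HOXA9. HOXA11 (ENSECAG00000058817) lay close to the level of the control, at 22.7 and 21.5 CPM, from 4771 and 4725 UMIs. The log2 ratio of HOXA11 was −0.08 (−0.13 to −0.02), so that the counting intervals of the 3 HOXA genes did not overlap each other.

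Of the HOXD genes, HOXD9 (ENSECAG00000021845) was the HOX gene with the largest difference among the 10. It had 31.1 CPM in the control and 18.8 CPM in the TGF-β1 library, from 6553 and 4131 UMIs. The level of HOXD9 was thus 1.66-fold lower, with a log2 ratio of −0.73 (−0.78 to −0.67), and 4.31% of the 7658 genes had a lower ratio. HOXD10 (ENSECAG00000020599), which acts in patterning of limb and trunk, had the fewest UMIs of the 10, 2850 in the control and 2615 in the TGF-β1 library. Its level was 13.5 and 11.9 CPM, a log2 ratio of −0.19 (−0.26 to −0.11), smaller in size than that of HOXD9. In the RefSeq annotation of another horse assembly (TB-T2T), the gene model of HOXD9 overlaps those of HOXD10 and HOXD11, so the split of reads between these genes is uncertain in both libraries.

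For HAND2 and FOXO1 the libraries lay close together. HAND2 (ENSECAG00000060197), the progesterone-induced stromal factor that restrains fibroblast growth factor signals to the epithelium, had 54.3 CPM in the control and 57.7 CPM in the TGF-β1 library, from 11431 and 12680 UMIs. Its log2 ratio was 0.09 (0.05 to 0.12), which with that of HOXA9 made 2 ratios above 0. FOXO1 (ENSECAG00000002212), a forkhead factor that insulin and AKT signals keep out of the nucleus and that drives decidual genes, had 73.3 and 64.4 CPM, from 15433 and 14160 UMIs. The log2 ratio of FOXO1 was −0.19 (−0.22 to −0.15). Its protein's place in the cell, through which it is mainly regulated, was not measured.

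NR2F2 (ENSECAG00000008381), also named COUP-TFII, is an orphan nuclear receptor of stromal cells downstream of epithelial hedgehog signals. It had 36523 UMIs in the control and 18384 in the TGF-β1 library, which is 174 and 83.7 CPM. With TGF-β1 its level was 2.07-fold lower (log2 ratio −1.05, −1.08 to −1.03), and 1.93% of the 7658 genes had a lower ratio. EMX2 (ENSECAG00000031152), a homeobox gene that HOXA10 represses in human endometrium, had 55.1 CPM in the control and 33.0 CPM in the TGF-β1 library, from 11606 and 7253 UMIs. The log2 ratio of EMX2 was −0.74 (−0.78 to −0.70), so that EMX2 and HOXA10 were both lower after TGF-β1. GATA2 (ENSECAG00000016768), which acts upstream of the progesterone receptor, had 19.9 and 19.7 CPM, from 4194 and 4333 UMIs. A difference in GATA2 was not detectable at this depth, with a log2 ratio of −0.01 (−0.08 to 0.05).

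Shares of cells with at least 1 UMI were counted after 20000 UMIs had been drawn at random from every kept cell (thinning), which gives the cells the same depth. The share of cells with NR2F2 was 92.5% (91.7% to 93.4%) in the control library and 74.8% (73.5% to 76.0%) after TGF-β1. That of HOXD9 was 44.7% (43.1% to 46.2%) and 31.1% (29.8% to 32.5%), and that of EMX2 62.0% (60.4% to 63.5%) and 48.4% (46.9% to 49.9%). In these 3 genes and in HOXA10, at 33.8% (32.4% to 35.4%) and 28.0% (26.7% to 29.4%), the intervals of the libraries did not overlap and the share was lower after TGF-β1. For FOXO1 the share was also lower, with 66.1% (64.6% to 67.6%) without and 62.1% (60.7% to 63.5%) with TGF-β1. For HOXA9 it was higher, with 38.9% (37.4% to 40.5%) in the control and 44.4% (42.9% to 45.9%) with TGF-β1. The intervals of the libraries overlapped for HOXA11 (35.9% and 34.5%), HOXD10 (21.3% and 19.8%), HAND2 (61.9% and 64.4%) and GATA2 (29.99% and 31.0%). In all, the intervals were apart for 6 of the 10 factors, where they were apart for 58.4% of the 7658 genes, so their separation alone does not set the factors off. Before thinning, the shares were 40.2% (HOXD10) to 99.2% (NR2F2) in the control and 36.8% (HOXD10) to 92.0% (NR2F2) in the TGF-β1 library. No cell type that should lack these genes was present, so free RNA was not measured, and a share is not a share of expressing cells.

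**Figure D2:**
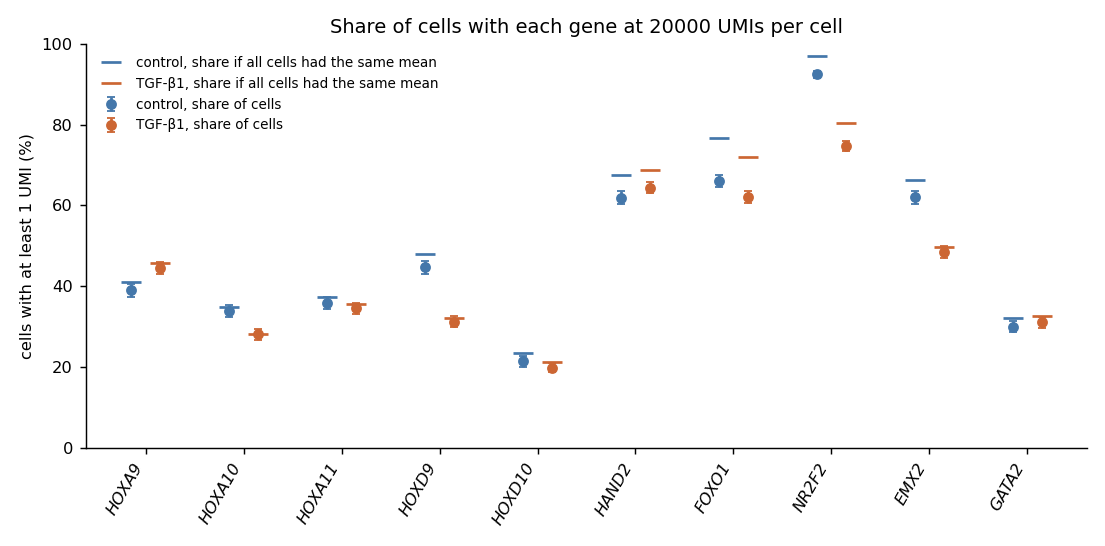
Share of cells with at least 1 UMI after thinning to 20000 UMIs per cell (points with exact 95% binomial intervals, control and TGF-β1), and the share that would result if every cell of a library had the same mean (horizontal ticks). NR2F2, EMX2 and HOXD9 differ most between the libraries, and FOXO1 lies farthest under its tick, 66.1% against 76.8% in the control.

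How unevenly a gene was spread over cells was read from the variance of its thinned UMIs divided by their mean (Fano factor), which is 1 when every cell has the same mean. Over the 7658 genes the median Fano factor was 1.15 in the control and 1.14 in the TGF-β1 library, with upper quartiles of 1.37 and 1.32. FOXO1 was the most unevenly spread of the 10, with a Fano factor of 2.04 in the control and 1.69 in the TGF-β1 library. The share of cells with FOXO1 was 66.1% in the control where equal means would give 76.8%, and 62.1% in the TGF-β1 library where equal means would give 72.0%. NR2F2 followed, at 1.89 and 1.46. HAND2 had 1.36 and 1.30, while the 5 HOX genes, EMX2 and GATA2 lay between 1.02 and 1.26. HOXA10 in the TGF-β1 library was closest to an even spread, at 1.02, with a share of 28.0% where equal means would give 28.1%. The Fano factor tends to rise with the mean of a gene, and means differed between the 10 genes.

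The lower level of NR2F2 was seen along its whole distribution over cells. The median thinned cell had 3 UMIs of NR2F2 in the control and 1 UMI in the TGF-β1 library. Cells with 6 or more UMIs of NR2F2 made up 18.1% of the control and 2.04% of the TGF-β1 library, and cells with 0 UMIs made up 7.45% and 25.2%. For EMX2, cells with 3 to 5 UMIs made up 10.9% of the control and 4.17% of the TGF-β1 library, and the median moved from 1 to 0 UMIs. Cells with 3 to 5 UMIs of HOXD9 made up 4.32% of control and 0.997% of TGF-β1 cells. FOXO1 had cells with 6 or more UMIs in both libraries, 2.82% of control and 1.79% of TGF-β1 cells. HAND2 was alike in both, with 0.699% and 0.665% of cells at 6 or more UMIs and a median of 1 UMI.

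**Figure D3:**
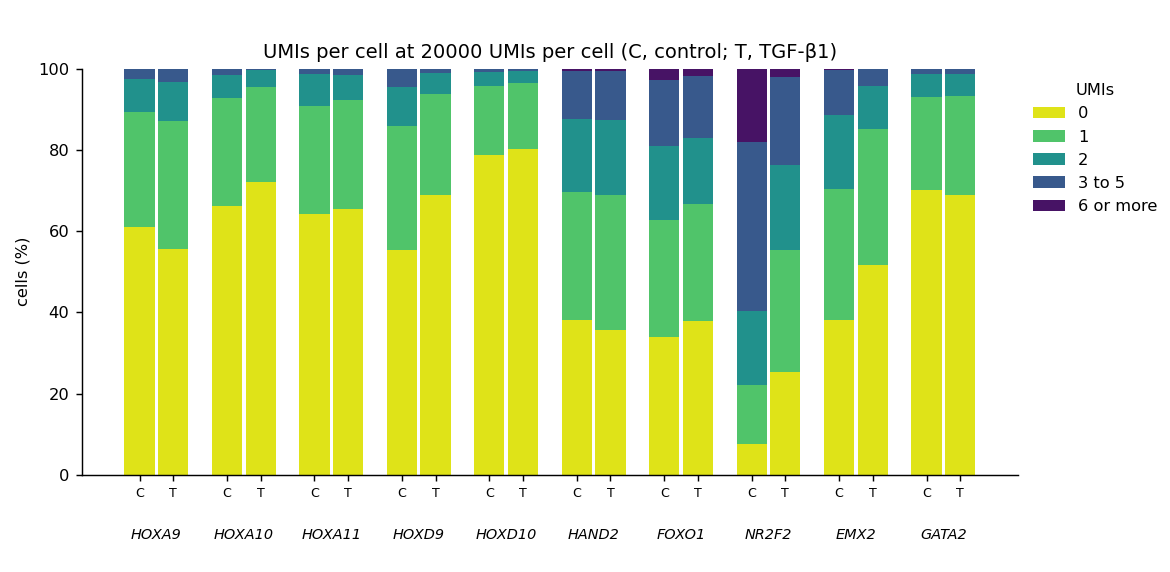
Cells by their number of UMIs of each transcription factor after thinning to 20000 UMIs per cell (stacked bars, percent of cells, C for control and T for TGF-β1). NR2F2 changes along the whole bar, from 18.1% to 2.04% of cells with 6 or more UMIs and from 7.45% to 25.2% with 0 UMIs, while the bars of HAND2 and GATA2 are close to each other.

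A thinned control cell held UMIs of 4.87 ± 1.58 of the 10 genes (mean ± SD over cells), and a TGF-β1 cell of 4.39 ± 1.56. All 10 were found together in 9 control cells and 2 TGF-β1 cells, and none of them in 0 control cells and 12 TGF-β1 cells. Of the 5 HOX genes, a cell held 1.75 in the control and 1.58 in the TGF-β1 library. Co-detection was described by the share of cells with both genes of a pair over the product of the shares of each gene. Of the 45 pairs, 40 in the control and 32 in the TGF-β1 library were above the product, by little, with median ratios of 1.02 in both. The counting interval lay above the product for 4 pairs in the control and 2 in the TGF-β1 library (2 and 2 with the product taken within rebuilt clusters). As a background, the median ratio of each factor with 6403 or 6404 other genes (those with a mean of 10 CPM or more, found in 10% to 90% of cells) was 1.00 to 1.01 in the control and 0.996 to 1.01 in the TGF-β1 library. Of those pairs, 58.2% in the control and 57.2% in the TGF-β1 library were above the product, and 1.25% and 1.46% had an interval above it. The pair with the highest ratio in both libraries was HOXD10 and GATA2, with 7.40% (6.59% to 8.27%) in the control where the product was 6.40%, and 6.96% (6.23% to 7.74%) after TGF-β1 where the product was 6.15%. With the product taken within each rebuilt cluster of similar cells, the ratio of HOXD10 and GATA2 was 1.15 in the control and 1.13 in the TGF-β1 library. These ratios lay inside the range that held 99% of the ratios of HOXD10 with other genes, 0.860 to 1.17 in the control and 0.887 to 1.14 in the TGF-β1 library, but above that of GATA2, 0.908 to 1.14 in the control and 0.922 to 1.12 in the TGF-β1 library. HOXD10 and HAND2, with ratios of 1.085 and 1.058, likewise lay above the upper ends of the range of HAND2, 1.062 and 1.057, and by the lower ratio of both libraries HOXD10 ranked 1 of 6403 genes with HAND2. With the product taken within rebuilt clusters, the ratios of HOXD10 and HAND2 were 1.079 in the control and 1.052 in the TGF-β1 library. In the TGF-β1 library the counting interval of this pair, 12.5% to 14.5%, spanned the product over all cells, 12.8%. The lowest ratio of any pair was 0.977 in the control and 0.941 in the TGF-β1 library. Cells came from 4 mares that were not told apart here, and a difference between mares would enter these ratios.

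Co-detection was much stronger for a HOX gene that was not among the 10. Of 6403 genes that reached a mean of 10 CPM and a share between 10% and 90% in both libraries, HOXD11, the neighbour of HOXD10, had the highest co-detection ratio with HOXD10. In the control 12.0% (11.02% to 13.1%) of cells held both, where the product was 7.23%, a ratio of 1.66. After TGF-β1 8.42% (7.63% to 9.27%) of cells held both, where the product was 5.62%, a ratio of 1.499. In the control, HOXD11 was found in 56.4% of the cells with HOXD10 and in 27.8% of the cells without it. In the TGF-β1 library these shares were 42.5% and 24.8%. Within rebuilt clusters the ratio was 1.60 in the control and 1.47 in the TGF-β1 library. The next gene in rank, APOE, had ratios with HOXD10 of 1.23 and 1.28. HOXD9 and HOXD11 had ratios of 1.03 and 0.926. HOXD11 was itself unevenly spread, with Fano factors of 1.62 and 1.38, where HOXD8 had 1.06 and 1.09. In RefSeq (TB-T2T) the models of HOXD10 and HOXD11 both overlap that of HOXD9 and not each other. The part of read assignment and of differences between mares in this pair was not tested. HOXD11 and its partners were chosen after their values were seen.

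Over the whole HOX family, 34 genes were found by symbol, and 21 reached a mean of 1 CPM. Of the 8 that reached a mean of 10 CPM, 2 were higher and 6 lower after TGF-β1, with a median log2 ratio of −0.23. Of all 21, the balance was the other way, with 12 higher and 9 lower and a median of 0.05, and none differed by more than 2-fold. Among all 12116 genes at this limit, 51.3% had a ratio below 0, 42.2% had an interval below 0 and 39.5% had an interval above 0, and the HOX genes are given by chromosomal cluster as a description. All 5 HOXD genes above this limit were lower, with every counting interval below 0 and log2 ratios from −0.73 (HOXD9) to −0.14 (HOXD4, 7.102 and 6.47 CPM). Among the scarcer HOXD genes, HOXD1 was higher, with 20 UMIs in the control and 87 in the TGF-β1 library (2.06, 1.35 to 2.84). In the HOXA cluster, HOXA3 (0.49), HOXA5 (0.40), HOXA6 (0.48), HOXA7 (0.52) and HOXA9 (0.22) were higher in log2 ratio, and HOXA10 and HOXA11, at the other end, were lower. In the HOXB cluster 3 of 4 genes were higher, HOXB2 most (0.71, 0.56 to 0.87), and in the HOXC cluster 4 of 5, but the counting interval lay above 0 for only 2 genes of each. The HOXC gene that was lower was HOXC10, at 2.09 and 1.28 CPM (−0.70, −0.92 to −0.48). Summed over these genes, the HOXA cluster had 17444 UMIs in the control and 18826 in the TGF-β1 library, and the HOXD cluster 21377 and 16629.

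Genes of the same number in different clusters are duplicates of a common ancestral gene. Among the genes numbered 9, HOXA9 (0.22), HOXB9 (0.60) and HOXC9 (0.38) were higher in log2 ratio and HOXD9 (−0.73) lower. The genes numbered 10, HOXA10 (−0.40), HOXC10 (−0.70) and HOXD10 (−0.19), were all lower. Among the genes numbered 11, HOXA11 (−0.08) and HOXD11 (−0.45, 27.5 to 20.1 CPM) were lower and HOXC11 (0.34, 0.08 to 0.61) was higher. HOXD8 had 22.3 and 18.4 CPM, a log2 ratio of −0.28 (−0.34 to −0.22), and HOXC6 12.2 and 12.7 CPM, a ratio of 0.05 (−0.03 to 0.13) that was not detectable as a difference. HOX genes numbered 13, which mark the lower tract and the limb end, were close to the limit of detection, with 56 and 62 UMIs of HOXA13 and 18 and 14 UMIs of HOXD13 in all kept control and TGF-β1 cells. Reads of HOX genes that overlap or resemble each other could not be checked in these counts.

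**Figure D4:**
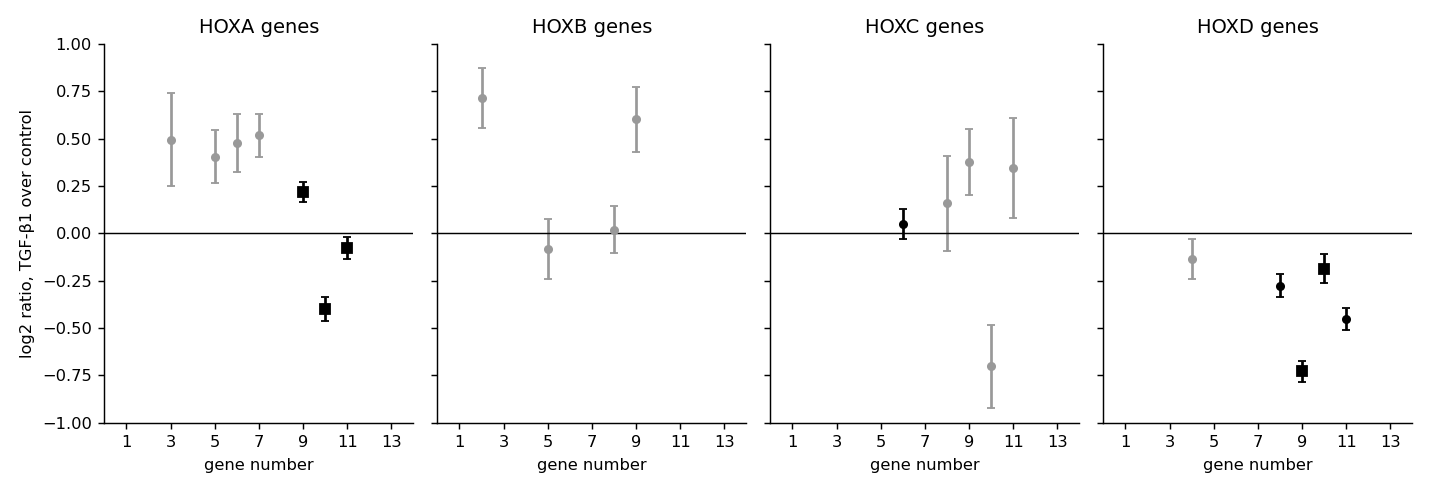
Log2 ratio of TGF-β1 over control for the 21 HOX genes that reached a mean of 1 CPM, by chromosomal cluster (panels) and gene number (x axis), with 95% counting intervals. Squares are the 5 HOX genes among the 10 transcription factors, black points reach a mean of 10 CPM and grey points less. All 5 HOXD genes shown lie below 0, and the HOXA genes lie above 0 up to HOXA9 and below 0 at HOXA10 and HOXA11.

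Partners and relatives were described from lists. HOX proteins bind DNA together with PBX, MEIS and PKNOX proteins, and TGIF1, of the same class, is also a corepressor of SMAD proteins. Of 9 such genes found, 7 reached a mean of 10 CPM, 4 of them higher and 3 lower, 0 by more than 2-fold. MEIS3 was lower (12.7 and 9.07 CPM in the control and TGF-β1 libraries, log2 ratio −0.48, −0.56 to −0.40). TGIF1 (72.3 and 85.1 CPM, log2 ratio 0.24), PBX3 and PKNOX1 (both 0.21) were higher.

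Relatives of the other factors were described in the same way. Of 11 found, 4 reached a mean of 10 CPM, and 4 of 4 were lower, with a median log2 ratio of −0.55. NR2F1, the paralogue of NR2F2, had 56.6 CPM in the control and 25.1 CPM after TGF-β1 (log2 ratio −1.17, −1.22 to −1.13). NR2F6 had 45.7 and 29.3 CPM (−0.64, −0.68 to −0.59), so that the 3 NR2F genes were all lower. NR2F1 was found in 59.6% of thinned control and 36.4% of thinned TGF-β1 cells, and was lower in 8 of 8 rebuilt clusters. NR2F1 and NR2F2 were found together in 55.8% of control cells where the product was 55.2%, and in 27.8% of TGF-β1 cells where the product was 27.2%. FOXO3 had a log2 ratio of −0.28 (65.2 and 53.8 CPM), not far from that of FOXO1, and a Fano factor of 2.29 in the control and 1.62 in the TGF-β1 library. GATA6 had 15.01 and 10.9 CPM, a log2 ratio of −0.46 (−0.54 to −0.38), where GATA2 showed no detectable difference. Of the 5 relatives that reached 1 CPM, GATA3 was the only one higher, with 737 and 1034 UMIs (log2 ratio 0.43, 0.29 to 0.56). EMX1, the relative of EMX2, had 3 and 5 UMIs, and HAND1 57 and 105 UMIs in all kept cells.

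Other transcription factors of Müllerian and mesenchymal position were mostly scarce. Of 29 found, 5 reached a mean of 10 CPM, 2 of them higher and 3 lower. OSR1, a zinc finger factor of the embryonic urogenital mesoderm, was the farthest from 0, with 50.1 CPM in the control and 13.5 CPM in the TGF-β1 library (log2 ratio −1.90, −1.96 to −1.84). Its relative OSR2 had 13.1 and 9.17 CPM (−0.51, −0.60 to −0.43). WT1, a marker of the mesothelium and the Müllerian stroma, had 40.3 and 40.7 CPM (0.01, −0.03 to 0.06), with no detectable difference, and TBX3 46.0 and 43.3 CPM (−0.09, −0.13 to −0.05). IRX3 was higher, with 12.9 and 16.4 CPM (0.35, 0.28 to 0.43). Of the 14 genes that reached a mean of 1 CPM, 8 were higher and 6 lower, and the homeobox gene DLX5 was the highest in ratio, with 102 UMIs in the control and 815 in the TGF-β1 library (log2 ratio 2.94, 2.64 to 3.25).

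Genes of the decidual program and targets of the 10 factors moved in both directions. Of 30 decidual genes found, 16 reached a mean of 10 CPM, 7 higher and 9 lower, and 3 differed by more than 2-fold (1 higher and 2 lower), where 4.43% of all genes did. Of the 24 that reached 1 CPM, 12 were higher and 12 lower, 3 and 2 of them by more than 2-fold, where 6.91% of the 12116 genes at that limit differed by as much, the scarce MAOB (52 and 705 UMIs, log2 ratio 3.70) and DKK1 (106 and 353 UMIs, 1.67) being among the higher. IL11, a cytokine of decidualization and of fibrosis, had 149.96 CPM in the control and 1993 CPM in the TGF-β1 library (log2 ratio 3.73). CEBPD (−1.32), which encodes a CCAAT enhancer binding protein, and the estrogen receptor ESR1 (55.4 and 26.5 CPM, −1.07) were lower, as were the progesterone receptor PGR (35.0 and 20.6 CPM, −0.76) and the chaperone CRYAB (−0.64). The defining decidual products were absent or nearly so, with 2 and 4 UMIs of PRL and 1 and 0 UMIs of IGFBP1 in all kept control and TGF-β1 cells. Fibroblast growth factors and IL15 were also described, as a list of stromal genes linked to HAND2. Of the 7 genes of this list, 4 reached a mean of 10 CPM, 0 of them higher and 4 lower. FGF9 (31.0 and 20.9 CPM, log2 ratio −0.57), FGF7 (−0.28) and FGF2 (−0.10) were lower, and FGF1 was not detectably different (−0.0017, −0.07 to 0.06). Among the 6 that reached 1 CPM, FGF18 (7.45 and 10.6 CPM, 0.51, 0.41 to 0.60) and IL15 (0.17, 0.06 to 0.28) were higher.

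Of 18 genes known as FOXO targets that were found, 9 reached a mean of 10 CPM, 4 higher and 5 lower. CITED2, a transcriptional coregulator, had 121 CPM in the control and 32.6 CPM in the TGF-β1 library (log2 ratio −1.89). The catalase gene CAT had 103 and 41.1 CPM (−1.32), GADD45A 348 and 214 CPM (−0.70) and SESN2 32.1 and 21.1 CPM (−0.61). TNFSF10, which encodes the death ligand TRAIL, was higher, with 14.6 and 33.4 CPM (1.19). The median log2 ratio over the 9 genes was −0.50, but −0.03 over the 14 genes that reached a mean of 1 CPM.

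The kept cells were clustered again with the 10 genes and all other HOX genes left out of the genes used, which gave 8 rebuilt clusters numbered 0 to 7. The clusters held 112 to 761 control and 58 to 1113 TGF-β1 cells. Of the 10 factors, 6 had the same direction in all 8 clusters, HOXA10, HOXD9, HOXD10, NR2F2 and EMX2 lower and HAND2 higher, where 48.1% of the 7658 genes did. NR2F2 had log2 ratios from −1.43 (cluster 5) to −0.79 (cluster 2), all with intervals below 0, and was more than 2-fold lower in 4 of the 8 clusters. HOXD9 ranged from −1.13 (cluster 7) to −0.32 (cluster 2), again with 8 intervals below 0, and was more than 2-fold lower in 2. EMX2 ranged from −0.88 to −0.43, with 8 intervals below 0. HOXD10 was lower in all 8 with the interval below 0 in 3, and HAND2 was higher in all 8 with the interval above 0 in 1. HOXA9 was higher in 7 of 8 clusters, with 5 intervals above 0.

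**Figure D5:**
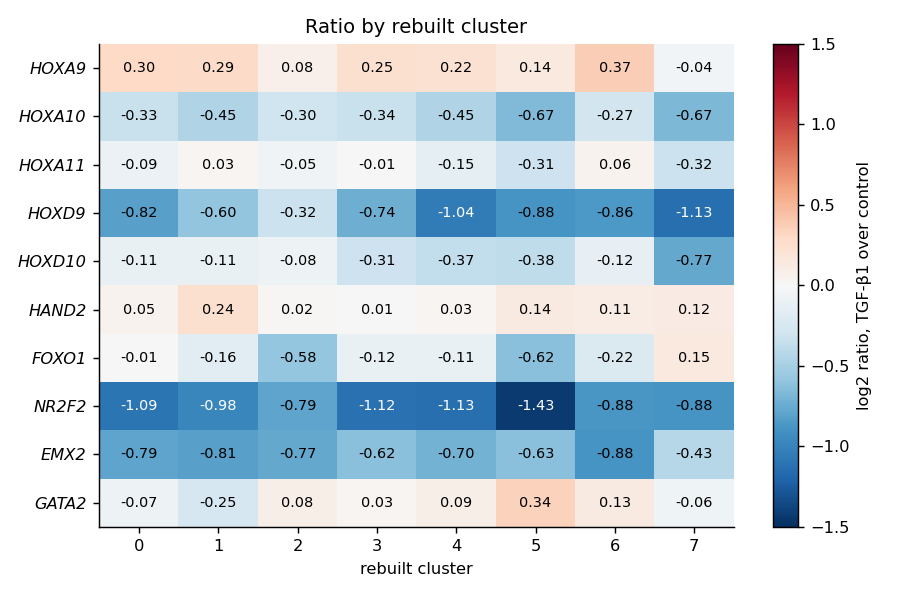
Log2 ratio of TGF-β1 over control for each transcription factor (rows) in each of the 8 rebuilt clusters (columns), with the value in each cell of the map and color from lower (blue) to higher (red). NR2F2, HOXD9 and EMX2 are blue in every column, and FOXO1 runs from −0.62 in cluster 5 to 0.15 in cluster 7.

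The ratios of FOXO1, GATA2, HOXA9 and HOXA11 differed in sign between clusters, but none of these genes had intervals on both sides of 0. HOXA11 was higher in 2 clusters and lower in 6, and all its intervals spanned 0. FOXO1 was lower in 7 clusters, with the interval below 0 in 6. The log2 ratio of FOXO1 was −0.62 (−0.89 to −0.36) in cluster 5 and −0.58 (−0.68 to −0.49) in cluster 2, but −0.01 (−0.09 to 0.08) in cluster 0 and 0.15 (−0.05 to 0.34) in cluster 7. GATA2 was lower in cluster 1, with a log2 ratio of −0.25 (−0.38 to −0.13), and its intervals spanned 0 in the other 7. Whether clusters differed in ratio was not tested, and cells of a cluster are not replicates.

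Levels of the factors also differed between the clusters within a library. FOXO1 had the lowest level in cluster 5, whose leading genes included CFD, C1R and SAA1, at 42.2 CPM in the control and 27.4 CPM in the TGF-β1 library. In the control it was highest in cluster 4 (104 CPM), whose leading genes included COL4A3 and MMP9, and in the TGF-β1 library in cluster 7 (111 CPM). HOXD10 differed most between clusters in the control, from 8.53 CPM (cluster 3) to 30.2 CPM (cluster 7), and ran from 6.86 to 17.7 CPM in the same clusters of the TGF-β1 library. HOXD11 was likewise lowest in cluster 3 and highest in cluster 7, with 16.5 and 40.7 CPM in the control. In the control, the 5 HOX genes, NR2F2 and GATA2 were all highest in cluster 7, with 44.2 CPM of HOXD9 and 264 CPM of NR2F2. This small cluster, with 112 control and 58 TGF-β1 cells, was led by CA4, KRT1 and SUSD4 and was left unnamed. HAND2 and EMX2 were the most even, with levels in the control of 48.1 to 62.8 CPM and 47.7 to 59.6 CPM over the clusters. Cluster 6 was cycling-like, with 9 of the 9 cycling markers found more than 2-fold higher, and there the log2 ratios of the 10 factors ran from −0.88 (EMX2) to 0.37 (HOXA9).

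For each factor, the genes most like it were taken as those with the highest Pearson correlation over 16 profiles (8 clusters in 2 libraries, centred within each library) among 7177 genes with a symbol. The profiles share cells of the same 4 mares and a library's depth, and the small clusters weigh as much as the large, so the values are descriptions. HOXD10 was most like HOXD11 (0.89), the same gene that led its co-detection. FOXO1 had the closest matches of all, GHR, FUT8 and TANC1 (each 0.98). HOXA10 was most like BAX (0.95), HOXA11 like GNPDA1 (0.94), GATA2 like SLC39A10 (0.93), HOXA9 like VAMP3 (0.92), NR2F2 like TMCO3 (0.91) and HOXD9 like SPON2 (0.90). HAND2 was most like the immediate early gene JUN (0.88). The best match of EMX2, SDC2, reached 0.71, the lowest of the 10. Among the factors themselves, HOXA11 and NR2F2 (0.85), HOXA10 and HOXD9 (0.77) and HOXA9 and HOXA11 (0.76) had the highest values, and EMX2 with HOXA10 had the lowest (−0.33).

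The level of some factors differed between cells of different depth. Cells were split by UMIs into 4 groups of equal size within each library. HOXD9 in the control ran from 38.5 CPM in the shallowest to 27.7 CPM in the deepest group, a ratio of 0.719, while in the TGF-β1 library it had 21.4 and 18.2 CPM. NR2F2 in the TGF-β1 library ran the other way, with the highest level, 90.0 CPM, in the deepest group, a ratio of 1.20. All other ratios of the deepest over the shallowest group lay between these values. Depth also differed between the rebuilt clusters, whose median was 42043 to 68611 UMIs in the control, and the part of each was not tested. In each of the 4 groups, HOXD9 and NR2F2 had lower levels in the TGF-β1 than in the control library.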

How the data were processed

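The authors deposited UMI counts per gene and cell barcode for each library, raw and not normalized, made with Cell Ranger against EquCab3.0 with the Ensembl annotation (release 109). Version 7.1.0 of Cell Ranger is given in the methods and the submitters' processing notes, but 8.0.1 in the file headers. Deposited barcodes had been called as cells, and the study's filters had not been applied. The study's edgeR tests need mares assigned from the reads and were not repeated.

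Cells with at least 20000 UMIs, 3500 genes and under 4% mitochondrial UMIs were kept, as in the study. Counts were summed per library, scaled to CPM and compared as log2 ratios in Python 3.11.15 (numpy 2.4.6, scipy 1.17.1, pandas 2.3.3, matplotlib 3.10.9). No ratio is given at 3 or fewer UMIs in both libraries. Shares used cells thinned to 20000 UMIs. Clusters with at least 50 cells of each library were compared, built in Seurat 5.3.0 (R 4.3.3) with log normalization, 2000 variable genes, of which 1 (FOXO1) was removed, 30 dimensions, canonical correlation integration and resolution 0.5. They are not the study's clusters. Likeness used log2(CPM + 1).

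The 10 factors and the gene lists were chosen with earlier results of these data known. Named are the 10 factors, the other HOX genes that reached a mean of 10 CPM, the 5 largest differences of each other list above that level and, per factor, up to 3 genes most like it. HOX genes between 1 and 10 CPM, EMX1, HAND1, GATA3, MAOB, DKK1, DLX5, FGF18, IL15, PRL, IGFBP1, HOXA13, HOXD1, HOXD13, APOE and the co-detection of HOXD10 with HOXD11 were added after their values were seen. By symbol, PBX4, TGIF2, FOXO6, FOXF2, FOXD1, BARX1, LEFTY2, IL11RA, CDKN1B, KRT18, KRT19 and MKI67 were not found, and CD14 had more than 1 row and was not used. Gene neighbours come from RefSeq (TB-T2T), another assembly than that of the counts, so no coordinates are given. A gene covered by the rule for named genes is not reported here. The ratio and thinning steps were tested on simulated data. Alternatives were other cell filters, normalizations, limits, thinning depths and clusterings.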

Additional observations from a re-analysis of the deposited data

How the results depend on the processing

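With 1 library per group, no replicate could be left out. Under 8 other cell filters, normalizations and weightings, the log2 ratios of 9 factors kept their direction, and that of GATA2, whose interval spans 0, lay between −0.03 and 0.0081 (size factor). Weighting cells equally put NR2F2 at −1.10. A 1.5-fold limit gave 3 factors in place of 1, NR2F2, EMX2 and HOXD9, and 970 of all genes in place of 339, and a minimum of 1 CPM gave 837 genes. The difference in the share of cells, TGF-β1 minus control in percentage points, depended on depth and on the UMIs required. Without thinning it turned for HAND2 (2.52 to −1.84) and GATA2 (1.01 to −3.35), and moved from 5.47 to 1.79 for HOXA9, −5.81 to −12.3 for HOXA10, −1.34 to −3.91 for HOXA11, −1.51 to −3.42 for HOXD10 and −17.8 to −7.29 for NR2F2. For HOXD9 it moved from −13.5 to −18.7. At 10000 UMIs per cell no direction turned, with 3.24 for HOXA9, −11.1 for HOXD9 and −24.6 for NR2F2. At that depth the difference was −0.323 for HOXA11, −2.32 for HOXD10 and 0.647 for GATA2. At 2 or more UMIs it was 2.11 for HOXA9, −2.92 for HOXA10, −7.89 for HOXD9, −0.713 for HOXD10, 0.672 for HAND2, −33.2 for NR2F2 and −0.16 for GATA2. Another random draw also turned GATA2 (−0.60), and gave −0.933 for HOXD10 and −16.2 in place of −13.6 for EMX2. The number of factors with the same direction in every cluster was 6, 8 at resolution 0.3 (5 clusters), 5 at resolution 0.8 (10 clusters) and 10 without integration, where only 1 cluster held 50 cells of each library. All deposited barcodes, an alternative added after seeing the data, left all 10 factors above 3 UMIs. Depth limits the ratios of HOX genes under 10 CPM, whose counting intervals are wide.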
